A study of Mus musculus with 96 samples.

Results

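Among 96 neurons of the mouse preoptic area that were recorded by whole-cell patch clamp in brain slices and then picked for single-cell RNA sequencing, 45 were firing cells with a label that sets warm sensitivity against insensitivity. They comprised 21 warm-sensitive cells and 24 temperature-insensitive cells that fired, and both sets were chosen by the deposited temperature label alone, not by expression. All came from C57BL/6N mice aged 2-3 months with no genetic modification or drug named in the labels, each cell was drawn into a glass pipette after its recording, and libraries were made by Smart-seq2, which copies full-length polyadenylated RNA, with Nextera XT tagging. The other 51 cells were 5 cold-sensitive cells, 10 silent sensitive cells, 18 silent insensitive cells and 18 cells without a usable label. The labels tie no cell to an animal, a slice or a recording day. Each group therefore counts as 1 sample, and the differences below are descriptions of these cells without a test.

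Warm-sensitive neurons of the preoptic area raise their firing when local temperature rises and are classically regarded as part of the brain's thermostat, which drives heat loss through the hypothalamus and brainstem. Many preoptic neurons that respond to warmth release GABA, the main inhibitory transmitter, made by the glutamate decarboxylases Gad1 and Gad2. Others are glutamatergic and load vesicles through the transporter Slc17a6. Firing depends on sodium, potassium and leak channels, and its cost is met by mitochondrial respiration.

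The libraries of the 2 groups differed in quality. Per cell, counts outside Rn45s, the ribosomal RNA precursor gene, ranged from 73702 to 1442967 in warm-sensitive cells (median 314892) and from 358631 to 2326980 in insensitive cells (median 761928). Rn45s took 29.3% to 90.6% of all counts in warm-sensitive cells (median 67.7%) and 25.8% to 72.1% in insensitive cells (median 45.4%). Genes with a count numbered 1614 to 4818 (median 3243) and 3235 to 7209 (median 4021), and at 100000 counts per cell the medians were 2183.5 genes in 20 warm-sensitive cells and 3048.5 in 24 insensitive cells. Warm-sensitive cells are thus the shallower libraries with fewer genes, and the groups overlap on every one of these measures. In each of the 7 title letters that held both groups, warm-sensitive cells had the higher median Rn45s share and fewer genes. The part of these quality measures in the differences below was not tested, and values at matched depth (11 pairs of cells) are given beside list medians. For this reason Rn45s was left out of the totals, and every gene was compared with the median gene.

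**Figure D1:**
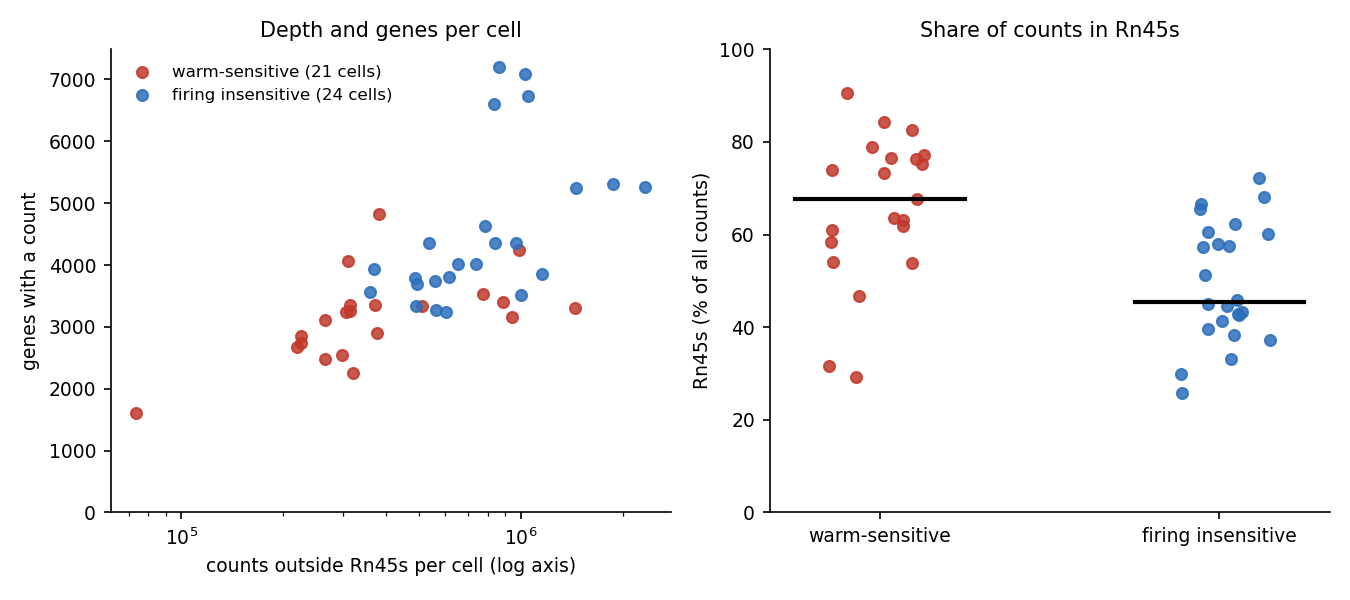
Left, counts outside Rn45s (log axis) against genes with a count, 1 point per cell. Right, Rn45s as a percentage of all counts, with group medians as bars. Warm-sensitive cells (red) have a median of 314892 counts outside Rn45s and 3243 genes, insensitive cells (blue) 761928 counts and 4021 genes.

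Most genes were lower in warm-sensitive cells before any centring. A gene was eligible when it reached 10 CPM (read counts scaled to a total of 1000000 per cell, over totals without Rn45s) in at least 25% of the 45 cells, counted without regard to group, and 3360 of 24053 genes were. The mean of log2(CPM + 1) was lower in warm-sensitive cells for 3006 of these genes and higher for 354, and the median difference was -1.34. The median gene reached 10 CPM in 28.6% of warm-sensitive cells and in 50% of insensitive cells. Among 2427 genes at 10 CPM in at least 5 cells of each group, the mean level in the cells that had the gene was higher in warm-sensitive cells for 1554, with a median difference of 0.34 on the log2 scale. So the group means were lower alongside fewer cells with a gene, while values in the cells that had it were not lower for most of these genes. CPM has a fixed total per cell, and the median number of genes at 10 CPM was 1614 in warm-sensitive and 2752 in insensitive cells. A total shared by fewer genes gives each a larger value, so no conclusion on expression per gene is drawn.

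Relative to the median gene, 618 genes stood 1 or more above on the log2(CPM + 1) scale (18.4% of those eligible) and 587 stood 1 or more below (17.5%). These shares are the background for every list below. Only 354 of the 618 had a higher mean in warm-sensitive cells without centring, so a place above the median gene can mean no more than a smaller shortfall. All 587 below had the lower mean without centring. The median within-group SD over cells was 3.40 log2 units in warm-sensitive and 3.38 in insensitive cells, so a difference of 1 is well inside the spread of single cells, and the counts past 1 do not say how many genes differ. The uncentred difference exceeded the mean of both SDs for 186 genes, each lower in warm-sensitive cells, and the centred difference did so for 33. Leaving out any 1 cell gave 602 to 655 genes above and 574 to 637 below.

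**Figure D2:**
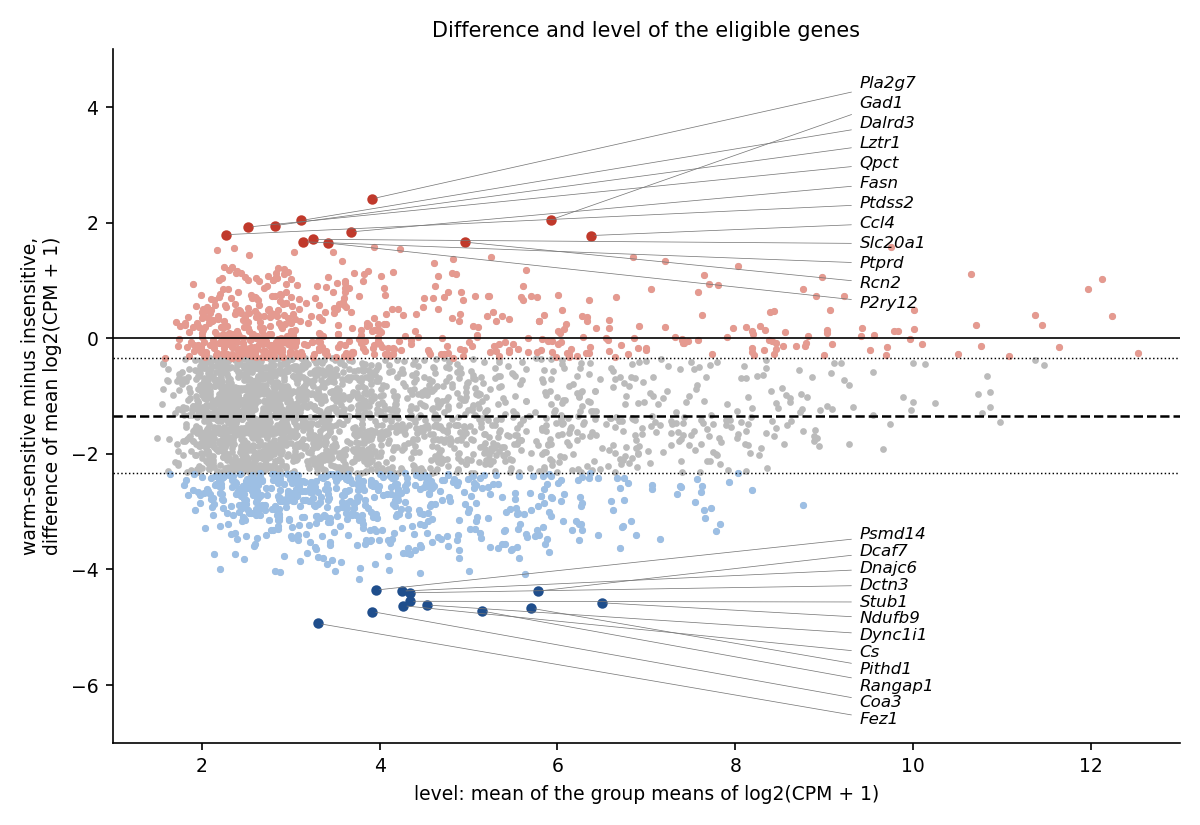
Each point is 1 of the 3360 eligible genes: level (mean of both group means, log2(CPM + 1)) against the warm-sensitive minus insensitive difference. The dashed line is the median gene at -1.34 and dotted lines lie 1 above and below it. The 12 named genes above all lie over 0, and the 12 below lie under -4.

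The level of a gene bore on where it stood. With the genes in 10 bins of equal size by level, the median difference was lowest in bin 8, at -1.61, and it was -1.15 in the top bin. In the top bin 92 genes stood 1 or more above the median gene and 35 below, whereas bin 8 held 41 and 86. Set against genes of like level, 610 genes stood 1 or more above (18.2%) and 573 below (17.1%), and 544 and 506 of them were shared with the sets above and below the median gene.

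The 12 named genes furthest below the median gene were Fez1, Coa3, Rangap1, Pithd1, Cs, Dync1i1, Ndufb9, Stub1, Dctn3, Dnajc6, Dcaf7 and Psmd14, with relative differences of -3.60 to -3.02. In each of them most insensitive cells and fewer than 10 of the 21 warm-sensitive cells were at 10 CPM or more. Lower counts were common: 21 warm-sensitive cells held at least 1 count of Ndufb9, 16 of Pithd1 and 14 each of Rangap1 and Dync1i1.

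Fez1, a kinesin-1 adaptor for axonal cargo (chr9:36821864-36878924, plus strand, mm10), ranged from 0 to 4.55 CPM in warm-sensitive cells with a median of 0. In insensitive cells it ranged from 0 to 830 CPM with a median of 187. It reached 10 CPM in 0 of 21 warm-sensitive cells (0%, exact Clopper-Pearson 95% interval 0 to 16.1%) and in 17 of 24 insensitive cells (70.8%, 48.9 to 87.4%). A count of 0 cells in 21 allows a share of up to 14.3% by the 3-count limit, for counting error only. Of the 3360 eligible genes, 3 reached 10 CPM in no warm-sensitive cell (Fez1, Enoph1 and Rltpr), and no eligible gene was below it in all insensitive cells. Enoph1 and Rltpr are named here after their values were seen. Eligibility was counted over both groups together, so these 3 genes were eligible through insensitive cells alone. The reverse case had to be met in warm-sensitive cells alone, where the median gene reached 10 CPM in 28.6%, against 50% of insensitive cells. The contrast thus depends on the filter, and no conclusion is drawn from it. Single Fez1 counts did occur: at 1 count the shares differed by only 27.4 percentage points. At matched depth, 0 of 11 warm-sensitive and 7 of 11 insensitive cells had Fez1 at 10 CPM.

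Dync1i1, an intermediate chain of cytoplasmic dynein, ranged from 0 to 808 CPM in warm-sensitive cells (median 3.22) and from 0 to 2329 CPM in insensitive cells (median 217). It was at 10 CPM in 4 of 21 and 18 of 24 cells, and its relative difference was -3.28. Dctn3, a subunit of the dynactin complex that links dynein to cargo, was at 10 CPM in 4 of 21 and 18 of 24 cells, with medians of 0.69 and 316 CPM. For both genes the groups overlapped, with the highest warm-sensitive cell at 808 CPM for Dync1i1 and 430 CPM for Dctn3.

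Cs, citrate synthase, the entry enzyme of the citric acid cycle (chr10:128337734-128362479, plus strand), ranged from 0 to 606 CPM in warm-sensitive cells (median 1.01) and from 0 to 793 CPM in insensitive cells (median 219). It was at 10 CPM in 6 of 21 and 19 of 24 cells. Ndufb9, a subunit of respiratory complex I, ranged from 1.13 to 1186 CPM in warm-sensitive cells (median 9.37) and from 0 to 1815 CPM in insensitive cells (median 578). Every warm-sensitive cell held a Ndufb9 count, yet 9 of 21 passed 10 CPM against 23 of 24 insensitive cells, so at 1 count the shares differed by 4.17 percentage points in the other direction. Coa3, an assembly factor of cytochrome c oxidase, was at 10 CPM in 3 of 21 and 19 of 24 cells, with medians of 0 and 136 CPM.

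Stub1, a ubiquitin ligase that works with heat shock proteins, ranged from 0 to 395 CPM in warm-sensitive cells (median 0) and from 0 to 680 CPM in insensitive cells (median 169), at 10 CPM in 4 of 21 and 21 of 24. Psmd14, the deubiquitinating subunit of the proteasome lid, had medians of 1.30 and 180 CPM and passed 10 CPM in 4 of 21 and 17 of 24 cells. Dnajc6, auxilin, which uncoats clathrin vesicles, had medians of 0.69 and 138 CPM and passed in 5 of 21 and 20 of 24 cells. Rangap1, the GTPase-activating protein of Ran, had medians of 3.76 and 480 CPM and passed in 7 of 21 and 21 of 24 cells. Pithd1 passed in 7 and 22 cells, and Dcaf7, a WD-repeat scaffold, in 8 and 22. For all 12 genes the insensitive share was the higher one, a direction nearly fixed by their choice in these same cells. For each of them some cells of both groups overlapped in value.

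**Figure D3:**
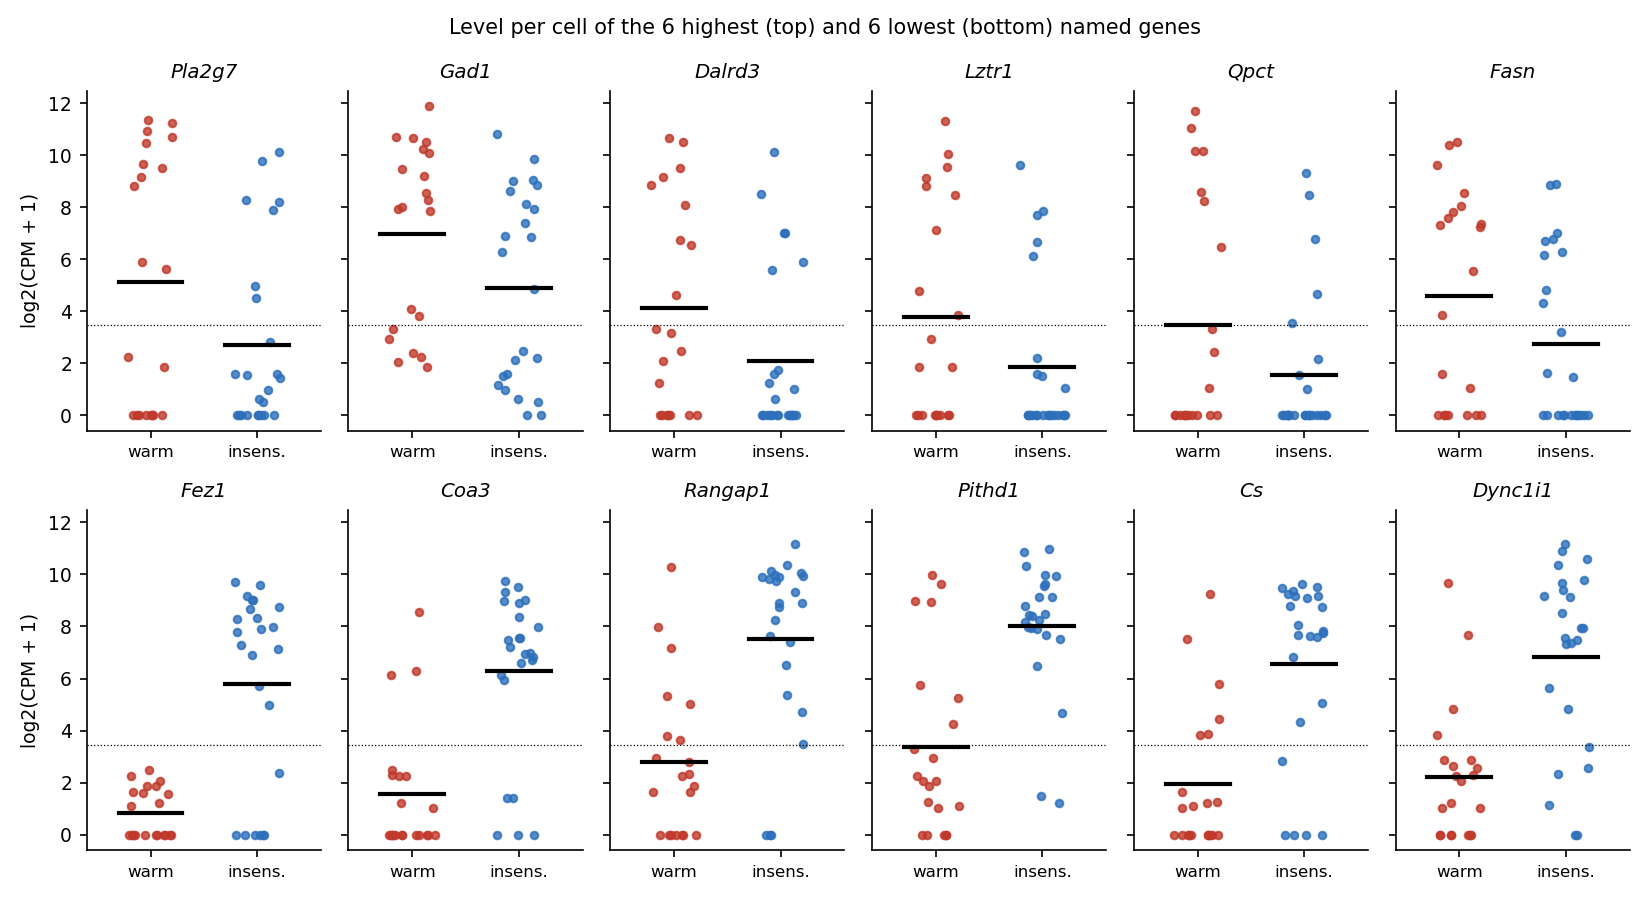
log2(CPM + 1) in each cell for the 6 named genes furthest above (top row) and furthest below the median gene (bottom row), with group means as bars and 10 CPM as a dotted line. Fez1 passes the dotted line in 0 of 21 warm-sensitive and 17 of 24 insensitive cells, while Pla2g7 passes it in 11 and 7.

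The 12 named genes furthest above the median gene were Pla2g7, Gad1, Dalrd3, Lztr1, Qpct, Fasn, Ptdss2, Ccl4, Slc20a1, Ptprd, Rcn2 and P2ry12, with relative differences of 3.75 to 2.98 and uncentred differences of 2.41 to 1.65. For all 12 the share of cells at 10 CPM was higher in the warm-sensitive group. Their choice by difference in these same cells nearly fixed that direction, so it is no support.

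Pla2g7, which hydrolyses platelet-activating factor (chr17:43568098-43612201, plus strand), ranged from 0 to 2592 CPM in warm-sensitive cells (median 48.9) and from 0 to 1122 CPM in insensitive cells (median 1.34). It passed 10 CPM in 11 of 21 and 7 of 24 cells. At 1 count its shares differed by -0.60 percentage points. Gad1 (chr2:70553072-70602014, plus strand) ranged from 2.65 to 3793 CPM in warm-sensitive cells (median 258) and from 0 to 1779 CPM in insensitive cells (median 52.3), and passed 10 CPM in 15 of 21 and 13 of 24. In counts summed over cells Gad1 stood at 941 CPM (exact Poisson 95% interval 922 to 960) in warm-sensitive and 241 CPM (234 to 248) in insensitive cells, intervals that cover counting error only. Without the single cell that weighed most, those sums were 658 and 174 CPM. Both genes were spread over the full range in each group, and neither separated the groups.

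Fasn, fatty acid synthase, ranged from 0 to 1444 CPM (median 45.4) in warm-sensitive cells and from 0 to 478 CPM (median 0.89) in insensitive cells, at 10 CPM in 12 of 21 and 9 of 24. Ptdss2, a phosphatidylserine synthase, passed 10 CPM in 8 and 5 cells with a median of 0 in both groups. Qpct, a glutaminyl cyclase that modifies peptide ends, passed in 7 and 5 cells, also with medians of 0. Slc20a1, a sodium-phosphate cotransporter, passed in 10 and 8 cells. Ptprd, a synaptic receptor phosphatase, passed in 9 and 8 cells, Dalrd3 in 9 and 6, and Lztr1, an adaptor for a cullin ubiquitin ligase, in 9 and 5. Rcn2, a calcium-binding protein of the endoplasmic reticulum, passed in 14 and 11 cells with medians of 178 and 1.94 CPM. In each of these 8 genes the highest warm-sensitive value exceeded the highest insensitive one. The warm-sensitive share of cells was the higher one, again by their choice, from 42.9% against 33.3% for Ptprd to 42.9% against 20.8% for Lztr1.

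Ccl4 and P2ry12 are a chemokine and a purinergic receptor known from microglia rather than neurons. Ccl4 ranged from 0 to 11401 CPM in warm-sensitive cells (median 226) and from 0 to 20325 CPM in insensitive cells (median 15.9), at 10 CPM in 16 of 21 and 13 of 24. P2ry12 passed in 7 and 5 cells. Of 14 microglial marker genes, 10 were eligible, 8 stood 1 or more above the median gene and none below, and their median was 1.58 (1.0 at matched depth). The summed microglial level was 16.9 to 20918 CPM in warm-sensitive cells (median 4757) and 8.25 to 41101 CPM in insensitive cells (median 1028). By summed counts the microglial median turned to -0.36.

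Astrocyte and oligodendrocyte markers stood above the median gene too. Among astrocyte markers 8 of 15 were eligible, 5 stood above (S100b, Apoe, Cst3, Clu and Ntsr2) and none below, with a median of 1.13 (1.47 at matched depth), and the summed level had medians of 11156 CPM in warm-sensitive cells (1542 to 66712) and 5200 CPM in insensitive cells (117 to 61666). Uncentred, the astrocyte median was -0.20. Leaving out single cells moved the centred median between 0.85 (warm-sensitive cell 8 left out) and 1.41 (insensitive cell 14 left out), and under 1 for 4 of the 45 cells. Among oligodendrocyte markers 5 of 15 were eligible, 3 stood above and none below, with a median of 1.83 that was 0.47 at matched depth. Their summed medians were 3187 CPM (11.3 to 90803) and 1697 CPM (19.5 to 13891), and Mog was at 0 in all warm-sensitive cells while Mag, Opalin and Aspa were at 0 in all insensitive cells. Of 12 endothelial and mural markers, 7 were at 0 in all 45 cells, Cldn5, Pecam1 and Cdh5 among them. The 1 eligible marker stood at -0.15. Their summed medians were 628 CPM (4.23 to 2995) in warm-sensitive cells and 756 CPM (30.5 to 2637) in insensitive cells. Pan-neuronal markers were all 16 eligible, with 2 above, 2 below and a median of 0.07 (0.05 at matched depth), and their summed medians were 10880 CPM (4302 to 26218) and 14727 CPM (3981 to 22542). Every cell of both groups thus held neuronal transcripts, most also held glial ones, and the part of glial RNA in the differences was not tested.

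Genes of transmitter use stood on both sides of the median gene. Among the eligible genes of GABA synthesis and transport, Gad1 stood above the median gene at 3.39 and Gad2 at 1.32. Abat, which degrades GABA, stood below at -1.29 and at 0.21 at matched depth. Gad2 passed 10 CPM in 14 cells of each group, its uncentred difference was -0.01, and without some single cells it was 0.99. Slc32a1, the vesicular GABA transporter, passed in 3 and 4 cells and was not eligible.

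At 10 CPM, Gad1 or Gad2 was present in 18 of 21 warm-sensitive cells (85.7%, exact interval 63.7 to 97.0%) and in 17 of 24 insensitive cells (70.8%, 48.9 to 87.4%). Slc17a6 was present in 9 of 21 (42.9%, 21.8 to 66.0%) and 14 of 24 (58.3%, 36.6 to 77.9%). Both kinds of gene occurred together in 7 and 8 cells, a Gad gene alone in 11 and 9, Slc17a6 alone in 2 and 6, and neither in 1 and 1. Slc17a6 itself lay at 0.17 relative to the median gene, and the median of the 5 eligible genes of glutamate transport and glutaminase was 0.41 (0.03 at matched depth), with 1 past 1.

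Genes often used to mark thermoregulatory preoptic neurons were mostly sparse, with 2 of 21 listed genes eligible. An exception was Ptgds, at 10 CPM in 21 of 21 warm-sensitive and 22 of 24 insensitive cells. Ptgds, the prostaglandin D synthase, ranged from 29.3 to 50281 CPM in warm-sensitive cells (median 1019) and from 7.5 to 70084 CPM in insensitive cells (median 349), with a relative difference of 2.92. In summed counts Ptgds stood the other way, at 5256 and 10178 CPM, and the highest values were 70084 CPM in insensitive and 50281 CPM in warm-sensitive cells; without the single cell that weighed most, the sums were 3459 and 5641 CPM. Adcyap1, the precursor of the peptide PACAP, passed 10 CPM in 3 of 21 and 7 of 24 cells, and Bdnf, a neurotrophin, in 1 and 6. In warm-sensitive cell 16 a single count is 13.6 CPM. That cell, at 1 count, was the only warm-sensitive cell to pass for Bdnf and 1 of the 3 for Adcyap1. The cold- and heat-gated or redox-sensitive channels gave little: Trpm2 passed in 2 and 2 cells, Trpm8 in 0 and 1, and Trpv1 had no count in either group. Ptger3, the prostaglandin E receptor of fever, and Opn5, an opsin, also had no count in the 45 cells and were not detectable at this depth. Lepr passed in 1 and 0 cells, Esr1 in 1 and 2, and Nos1 in 2 and 1. Trpc5 and the leak channel Kcnk2 passed in 0 of 21 warm-sensitive cells against 6 and 9 of 24 insensitive cells. Counts below 10 CPM did occur in warm-sensitive cells, up to 6.55 CPM for Trpc5 and 5.36 CPM for Kcnk2. A lower warm-sensitive share was common among genes. The median eligible gene reached 10 CPM in 28.6% of warm-sensitive and 50% of insensitive cells. No TRP channel of 17 listed was eligible.

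Voltage-gated sodium channels stood mostly above the median gene. Of 9 genes 6 were eligible. Of these, 3 stood 1 or more above (Scn1a, Scn2a1 and Scn8a, 50% against 18.4% of all eligible genes) and none below. Their median was 0.82 (0.58 at matched depth, 0.36 within title letters, and 0.53 without warm-sensitive cell 14). Uncentred, the list median was -0.51. Scn1a was then at 1.11, Scn2a1 at 0.70 and Scn8a at -0.30, and Scn8a passed 10 CPM in 5 of 21 and 9 of 24 cells. Scn1a stood at 2.44 with 9 of 21 and 11 of 24 cells at 10 CPM, and Scn2a1 at 2.04 with 13 cells in each group. The highest Scn1a value was 1504 CPM in warm-sensitive and 680 CPM in insensitive cells. At matched depth Scn1a was at 3.77 and Scn2a1 at 0.15.

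Potassium channel genes divided. Of 38 listed, 11 were eligible, 2 stood above (Dpp6 and Kcna3) and 1 below (Kcnip1), with a median of 0.13 (0.26 at matched depth), near the median gene. Dpp6, an auxiliary subunit of A-type channels, ranged from 0 to 1830 CPM in warm-sensitive cells (median 93.4) and from 0 to 1550 CPM in insensitive cells (median 13.4), at a relative difference of 2.74. Kcnip1, a calcium-binding partner of the same channels, ranged from 0 to 507 CPM (median 0) and from 0 to 993 CPM (median 37.6), at -2.51, with 2 of 21 and 12 of 24 cells at 10 CPM. Both are partners of Kv4 channels, and they lay on opposite sides of the median gene. Of the 4 eligible leak and HCN genes, the sodium leak channel Nalcn stood at 1.8 with 6 and 7 cells at 10 CPM, and its partners in the same channel complex, Unc79 and Unc80, stood at -0.68 and -0.66 with 5 of 21 cells each against 14 and 13 of 24. Kcnk1, a potassium leak channel, stood at 0.41. The list median was -0.12, turned its sign when any of 5 single cells was left out, and was 1.5 at matched depth. The 4 eligible calcium channel genes held none past 1, with a median of -0.40 (-0.91 at matched depth).

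Receptors for GABA held 9 eligible genes of 16, 4 above (Gabbr1, Gabrg1 and Gabrb2 among them) and none below, with a median of 0.61 (0.77 at matched depth and 0.34 without warm-sensitive cell 4). Gabbr1, which with Gabbr2 forms the G-protein-coupled GABA receptor, ranged from 0 to 1485 CPM in warm-sensitive cells (median 63.5) and from 0 to 638 CPM in insensitive cells (median 5.90). It stood at 2.92, and passed 10 CPM in 12 of 21 and 10 of 24 cells. Ionotropic glutamate receptors held 6 eligible genes, 1 above and 2 below, with a median of 0.02 (0.23 at matched depth): the AMPA receptor subunit Gria4 stood above at 1.95, and another AMPA subunit, Gria1, stood below at -1.01 as did the NMDA subunit Grin2b at -1.38. Grin2b was at 10 CPM in 5 of 21 and 16 of 24 cells.

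Genes of vesicle release lay near the median gene as a list, with 27 of 33 eligible, 5 above (Syt1, Rims1, Cplx1, Bsn and Vamp2), 3 below (Syt4, Sv2a and Napa) and a median of -0.27 (-0.32 at matched depth). Syt1, the calcium sensor of fast release, ranged from 0 to 7910 CPM in warm-sensitive cells (median 826) and from 7.18 to 1960 CPM in insensitive cells (median 391), at 2.06. Napa, which with NSF recycles SNARE complexes, had medians of 4.44 and 549 CPM, passed 10 CPM in 7 of 21 and 19 of 24 cells, and stood at -2.14. Of 11 eligible granin and peptide-processing genes, 3 stood above (27.3% against 18.4% of all eligible genes) and none below. The 3 were Cpe, Pcsk1n and Scg5, which process or bind peptides in secretory granules. Their uncentred differences were -0.10, -0.21 and -0.30. The list median was 0.68 (1.2 at matched depth and 0.17 within title letters), and -0.66 uncentred.

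The proteasome held the most genes below the median gene for its size among the lists with at least 10 eligible members. Of its 31 eligible genes of 32, none stood 1 or more above and 17 stood below (54.8% against 17.5% of all eligible genes), with a median of -1.04 (-1.32 at matched depth). Against genes of like level 1 stood above and 12 below, with a median of -0.80, and within title letters the median was -0.66. Leaving out single cells moved the median between -1.21 (without insensitive cell 21) and -0.87 (without insensitive cell 3), and for 22 of the 45 cells it then lay within 1 of the median gene. Psmc1, an ATPase subunit of the cap, ranged from 0 to 538 CPM in warm-sensitive cells (median 2.03) and from 1 to 1340 CPM in insensitive cells (median 278), at -2.73, and passed 10 CPM in 5 of 21 and 18 of 24 cells.

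Chaperones stood more often below the median gene than above it. Of 32 eligible heat shock and chaperone genes of 40, 3 stood 1 or more above (9.4% against 18.4% of all) and 14 below (43.8% against 17.5%). Their median was -0.47 (-0.44 at matched depth, -0.17 within title letters, and -0.80 without warm-sensitive cell 6). Stub1 and Dnajc6 were the lowest. Hspb1, a small heat shock protein, stood at 1.68 with 6 cells at 10 CPM in each group, and Hspa8, the constitutive HSC70, stood at 1.37 with an uncentred difference of 0.03. Hspa8 was among the steadiest genes over cells, from 144 to 1290 CPM in warm-sensitive cells (median 617) and from 9.47 to 1158 CPM in insensitive cells (median 497).

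The citric acid cycle held 20 eligible genes of 23, 2 above and 10 below (50% against 17.5% of all), with a median of -0.96. It was -0.96 within title letters, -1.16 at matched depth, -1.02 against genes of like level, and between -1.17 and -0.81 when single cells were left out. Sdhc, an anchor subunit of succinate dehydrogenase, had medians of 2.61 and 194 CPM and stood at -2.09, with 6 of 21 and 19 of 24 cells at 10 CPM. The 2 above, Idh3a and Mdh1, both at 1.24, had uncentred differences of -0.09 and -0.10, and Idh3a stood at -0.29 at matched depth. The 4 succinate dehydrogenase genes stand in this list and in that of complexes II to IV.

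Complex I held 36 eligible genes of 37, with 4 above (11.1% against 18.4% of all) and 8 below (22.2% against 17.5% of all). The 4 above, Ndufs6, Ndufs8, Ndufa2 and Ndufc2, had uncentred differences of -0.05, -0.07, -0.08 and -0.11. The list median was -0.55 (-0.98 at matched depth, -0.23 within title letters and -0.19 without cells over 75% Rn45s). Ndufa10, a complex I subunit, stood at -1.78. Complexes II to IV held 25 eligible genes, with 3 above (Uqcrh, Cox5a and Cox4i1), 7 below and a median of -0.11 (-0.42 at matched depth and 0.08 within title letters). Uqcrc2, a core subunit of complex III, ranged from 0 to 1613 CPM in warm-sensitive cells (median 3.76) and from 2.79 to 3717 CPM in insensitive cells (median 713), at -2.75. Uqcrh, the hinge subunit of the same complex, stood at 1.81 with medians of 673 and 463 CPM. ATP synthase held 16 eligible genes of 17, with 5 above, 2 below and a median of 0.18 (0.07 at matched depth). Atp5a1 was at 1.32 with an uncentred difference of -0.02, and Atp5f1 at -2.06. Glycolysis held 15 eligible genes, with 4 above, 2 below and a median of 0.03 (0.75 at matched depth): Pfkl stood at 1.83 and its paralogue Pfkp, also a phosphofructokinase, at -1.79. Subunits of 1 complex thus lay on both sides of the median gene. Differences between these lists were not tested.

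Of 45 genes of kinesin, dynein and axonal transport 37 were eligible, with 3 above, 11 below (29.7%) and a median of -0.56 (-0.78 at matched depth and -0.32 without warm-sensitive cell 15). Fez1, Dync1i1 and Dctn3 were the lowest, and Bicd1, a dynein adaptor, stood highest at 1.59. Microtubule-binding proteins and stathmins held 22 eligible genes of 26, with 1 above, 6 below and a median of -0.80 that was -0.92 at matched depth and -0.26 within title letters. Mapre1, the plus-end tracking protein EB1, had medians of 0 and 184 CPM, passed 10 CPM in 4 of 21 and 17 of 24 cells, and stood at -2.57. Among 8 eligible genes of Ran and nuclear transport, Rangap1, Ran at -2.23 and 1 other stood below, while Ranbp2 at 2.01 and Xpo1 at 1.78 stood above. Ran had medians of 6.55 and 249 CPM.

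**Figure D4:**
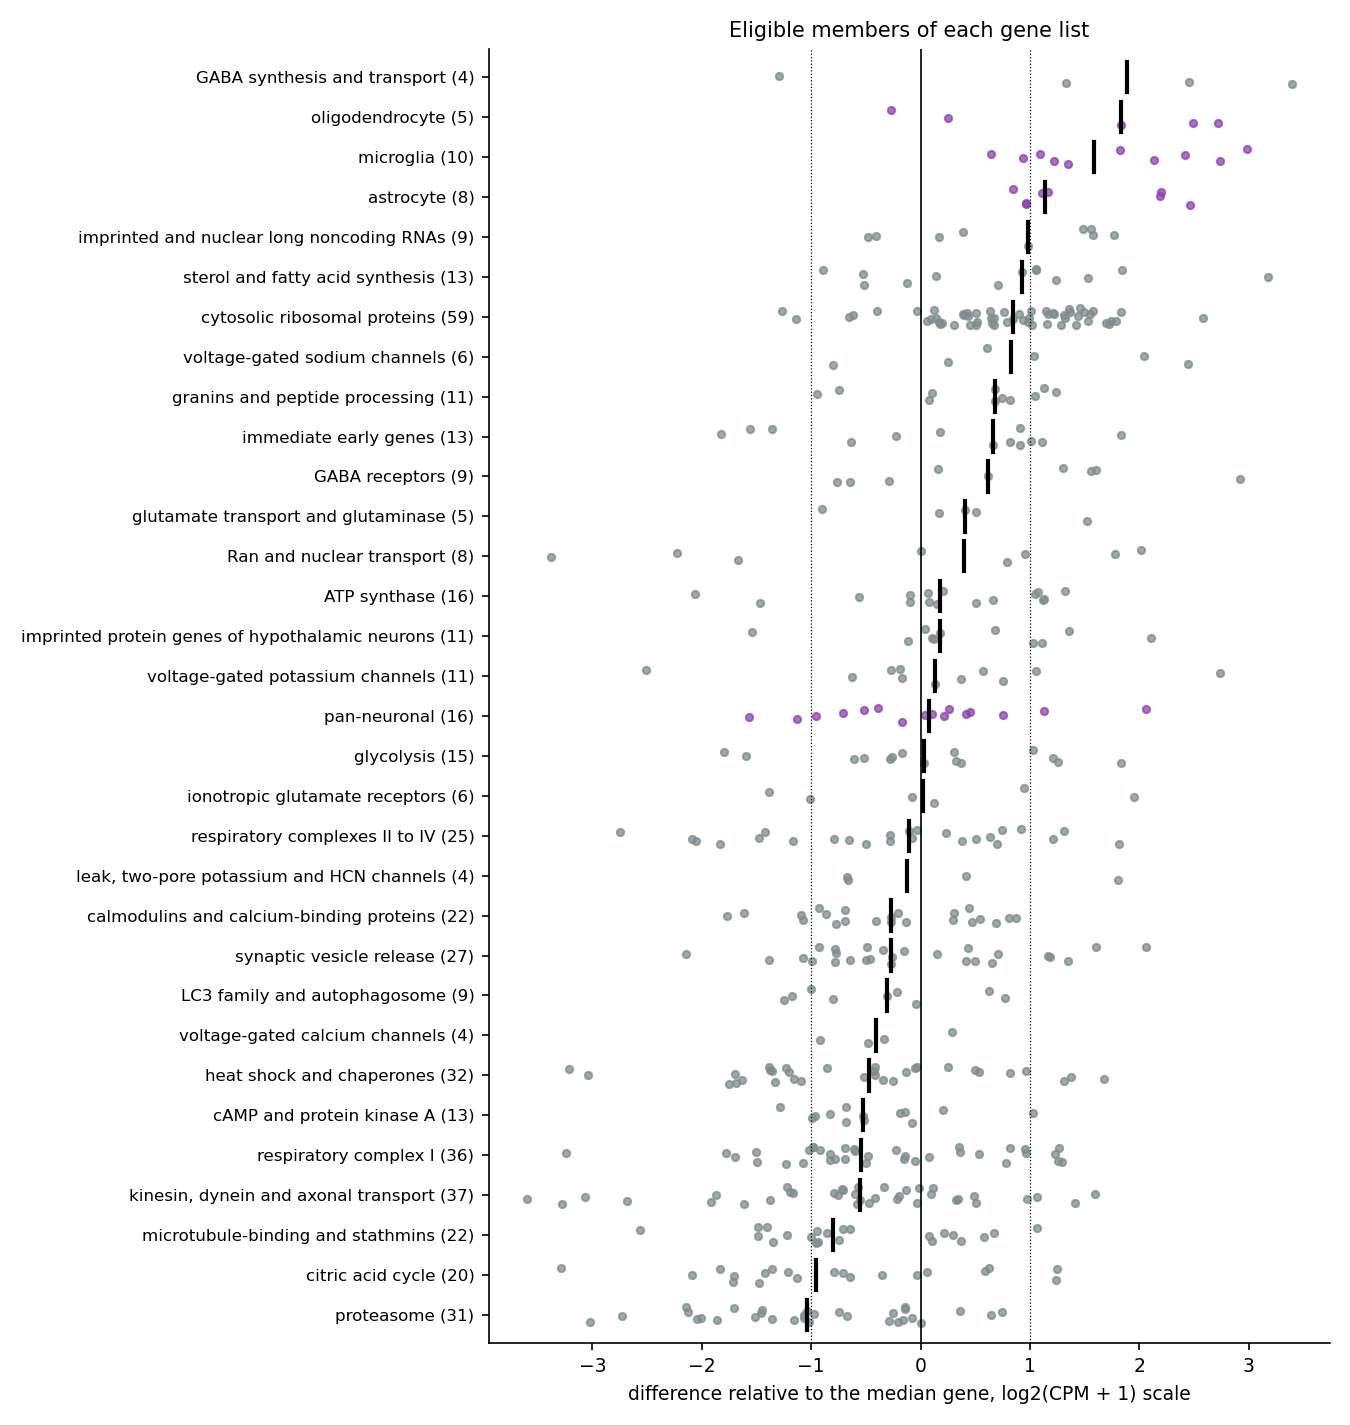
Relative difference (log2(CPM + 1) scale, 0 is the median gene) of each eligible member of the gene lists with at least 4 eligible genes, pathways in grey and cell type markers in purple, with the median of each list as a bar and the number of eligible genes in parentheses. The medians run from -1.04 for the proteasome to 1.89 for GABA synthesis and transport.

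Cytosolic ribosomal protein genes stood mostly above the median gene. Of 59 eligible genes of 80, 25 stood 1 or more above (42.4% against 18.4% of all) and 2 below, with a median of 0.84 (0.68 at matched depth), and against genes of like level 30 stood above. Rpl4 was found at 10 CPM in all 45 cells, with medians of 2175 and 1110 CPM. Many ribosomal protein genes have near-identical pseudogenes, so how reads were split between copies is uncertain. Their uncentred median was -0.49, below 0.

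Long noncoding RNAs that are kept in the nucleus or imprinted held 9 eligible genes, 4 above (Rian, Malat1, Snhg11 and Meg3) and none below, with a median of 0.99 (1.78 at matched depth). Malat1, an abundant nuclear RNA, ranged from 162 to 44580 CPM in warm-sensitive cells (median 4436) and from 13.9 to 37681 CPM in insensitive cells (median 3690), at 1.57. Rian stood at 1.77 with 8 cells at 10 CPM in each group. Of 11 eligible imprinted protein genes, 4 stood above and 1 below, with a median of 0.17 (0.34 at matched depth): Dlk1 was at 2.10 and Zdbf2 at -1.54.

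Sterol and fatty acid synthesis held 13 eligible genes of 29, 6 above (Fasn, Cyp51, Srebf2, Scd2, Insig1 and Elovl5, 46.2% against 18.4%) and none below, with a median of 0.93 that was 0.33 at matched depth. Cyp51, which demethylates lanosterol on the way to cholesterol, stood at 1.84 with 7 of 21 and 8 of 24 cells at 10 CPM. Immediate early genes, which follow neuronal activity and stress, held 13 eligible of 20, with 3 above (Ier2, Nr4a1 and Arc), 3 below (Jun, Atf3 and Egr4) and a median of 0.66 that was -0.08 at matched depth. Jun ranged from 0 to 4129 CPM in warm-sensitive cells (median 13.2) and from 0.54 to 4364 CPM in insensitive cells (median 472), at -1.82. Atf3, a stress-induced factor, had medians of 1.01 and 291 CPM and stood at -1.56. Ier2 stood at 1.83 with 7 and 5 cells at 10 CPM. Calmodulins and calcium-binding proteins held 22 eligible genes, none above and 4 below (Camk2a, Camk2b, Camk2d and Ppp3ca, kinases and a phosphatase activated by calcium and calmodulin). The list median was -0.27 (-0.89 at matched depth). Camk2a stood at -1.77 with medians of 83.4 and 695 CPM. Whole-cell recording preceded the picking of every cell in both groups.

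Among hypothalamic transcription factors 3 of 25 were eligible, and Zfhx3 stood at 2.03 and Zic1 at 1.62, each with between 6 and 7 cells at 10 CPM per group. The third, Tcf7l2, stood at 0.25, with an uncentred difference of -1.09. The list median of 1.62 was 0.35 at matched depth. Summed over all 25 genes, the medians were 158 CPM in warm-sensitive and 398 CPM in insensitive cells. None of 9 forebrain GABAergic transcription factors was eligible. The lists not described here gave no member past 1, or held at most 3 eligible genes, except cyclic AMP and protein kinase A with 1 above and 1 below among 13 and the autophagosome list with 3 below among 9. Their medians were -0.53 and -0.31, and -0.10 and -0.32 at matched depth.

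The 24 named genes kept their direction within title letters, at matched depth, at 100000 counts and without the 8 warm-sensitive cells whose Rn45s share passed 75%. At matched depth 11 pairs of cells had medians of 513079 and 535274 counts outside Rn45s, and still 3343 and 3936 genes. There Fez1 was at -2.93, Cs at -4.13, Ndufb9 at -3.98 and Stub1 at -4.55, Gad1 at 3.27, Pla2g7 at 4.68, Ptdss2 at 1.68 and P2ry12 at 1.53. The genes were chosen as the extremes of these same cells, so keeping their sign in subsets of them is no support. Matching made 820 genes stand above and 913 below, with 359 and 414 shared with the sets from all cells (58.1% and 70.5% of those sets).

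**Figure D5:**
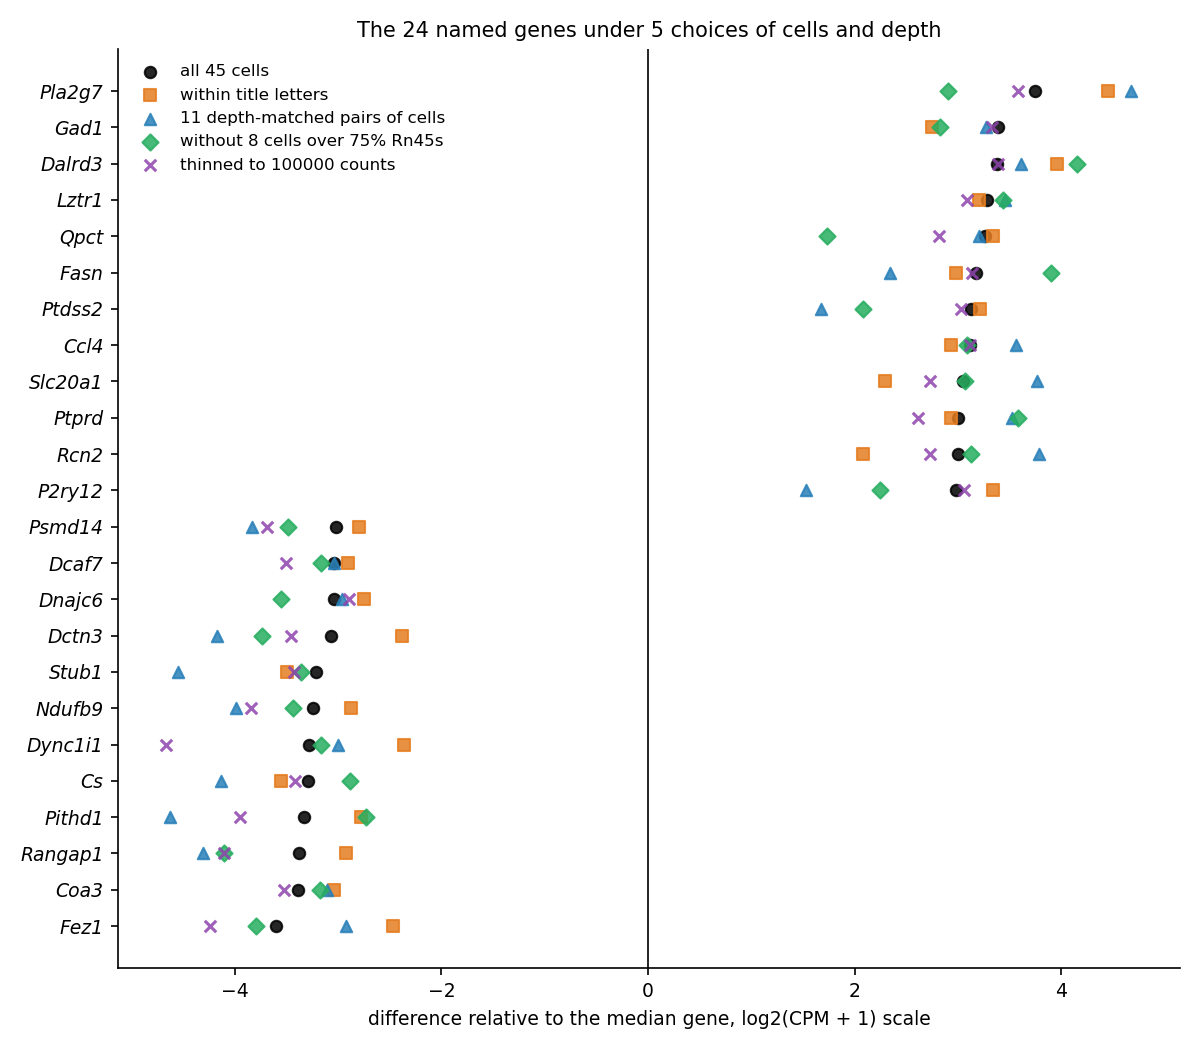
Relative difference of the 24 named genes in all 45 cells, within title letters, in 11 depth-matched pairs, without 8 cells with over 75% Rn45s, and after thinning to 100000 counts. All 24 keep their side of 0; Ptdss2, P2ry12 and Qpct move most toward 0, to 1.68, 1.53 and 1.73.

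Values of the lead genes in the other cells are given side by side, without comparison, because those libraries have depths of their own: the median counts outside Rn45s were 734507 in 5 cold-sensitive, 415420 in 10 silent sensitive and 362457 in 18 silent insensitive cells. Fez1 was at 10 CPM in 4, 2 and 12 of these cells. Cs was at 10 CPM in 4, 3 and 5 cells, and Ndufb9 in 4, 5 and 14. Gad1 was at 10 CPM in 4, 4 and 14 cells, with medians of 154, 2.96 and 325 CPM. Pla2g7 was at 10 CPM in 1, 3 and 5 cells. Stub1 was at 10 CPM in 2, 0 and 9 cells.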

How the data were processed

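The data are 96 single-cell Smart-seq2 libraries, of which 45 are used. The authors' raw file holds counts, whole numbers for each gene and cell. The deposited normalized values, a signal, equal those counts divided by 1 constant per cell, and no source used here states how it was made. Per the submitters' processing notes, FastQC, STAR and edgeR were used with build mm10, without versions. Groups come from the deposited temperature label. All columns of both tables matched a sample.

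From the counts, CPM was computed over totals without Rn45s. The difference is the mean of log2(CPM + 1) over warm-sensitive cells minus that over insensitive cells, less its median over eligible genes (10 CPM in at least 25% of the 45 cells), and understates changes of low genes. The limit of 1 is a size rule, not a test: each group counts as 1 sample, and no p-value or standard error was made from cells. The value of 1 count ranged from 0.43 to 13.6 CPM, so in 1 cell, warm-sensitive cell 16, a single count passes 10 CPM. All 1614 genes with a count in that cell therefore passed. Named genes were the 12 highest and 12 lowest eligible genes that kept at least 67% of the difference without any 1 cell and its sign within title letters, leaving out predicted, small RNA and ribosomal protein genes; a fixed set of 17; and up to 2 highest and 2 lowest per gene list; other list members are named for passing 1. Members and lists were chosen with earlier results of these data known. Letters and numbers in cell titles were used only to compare like with like; 3 insensitive cells of 1 letter had no warm-sensitive cell beside them. Coordinates are GENCODE M21. No 2 cells were identical (highest correlation 0.65). Intervals of 95% on summed counts cover counting error only, and those on shares of cells cover only the number of cells; none compares the groups. Alternatives used edgeR 4.0.16 (TMM) and DESeq2 1.42.0 size factors, Python 3.11.15 and R 4.3.3. The measures were run on simulated data, with each gene redrawn independently from the 45 cells pooled and a known change put into some genes. Links between genes within a cell are lost there, so no conclusion on the counts past 1 is drawn from it. No doublet caller was run, and material of a neighbouring cell taken up in the pipette was not tested for. Some genes are not reported here.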

Additional observations from a re-analysis of the deposited data

How the results depend on the processing

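Of the counts, 618 above and 587 below the median gene became 261 and 291 with a pseudocount of 10 CPM, 232 and 187 with the filter at 50% of cells, and 128 and 107 with a size rule of 2. Without centring they were 63 and 2082. Without a filter, 485 stood above and 2527 below. At matched depth 913 stood below. The median difference of -1.34 became -0.34 without a filter and -0.16 by summed counts, where a few deep cells weigh most. Leaving out any 1 cell gave 602 to 655 above, 574 to 637 below and -1.41 to -1.24. Without centring Gad2 was at -0.012, Atp5a1 at -0.016, Idh3a at -0.094, Mdh1 at -0.10 and the astrocyte median at -0.20, by construction of that setting. Without some single cells these 4 genes came to 0.99, 0.96, 0.92 and 0.94. By summed counts Ptgds was at -0.79, Glud1 at -0.45, C1qb at -0.42, Ier2 at -0.084, Dlk1 at -0.079 and the microglial median at -0.36. At matched depth Abat was at 0.21 and Idh3a at -0.29. The cause was not tested. Other list members named for passing 1 above the median gene also lay below 0 without centring, between -0.33 and -0.05. Among them were Cpe, Pcsk1n, Scg5, Scn8a, Kcna3, Nr4a1, Arc, Vamp2, Bsn, Ndufs6, Ndufs8, Ndufa2 and Ndufc2. Of all 618 genes above, 354 had the higher mean in warm-sensitive cells without centring. No other list median that had passed 1 turned its direction. The measure against genes of like level was chosen after seeing the data. No paired analysis was possible because no label pairs cells. Counts with Rn45s in the totals were 433 and 432, and those from the deposited normalized values 421 and 408.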

Other observations

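The median transcript of genes 1 or more below the median gene was 2465 bases long (quartiles 1588 and 4114), against 3014 bases (1770 and 5107) for those above and 2918 bases (1733 and 4716) for those within 1. GC content was 49.3% in both sets past 1 and 49.8% in the rest, from GENCODE M21 transcripts that matched 96.4% of the eligible genes. Set against genes of like level, the lengths were 2572 and 2852 bases.

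Y-linked transcripts were at 10 CPM in 8 of 21 warm-sensitive and 16 of 24 insensitive cells, and Xist in none of the 45 cells.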
